A study of Arabidopsis thaliana with 9 samples.

Results

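Aliphatic glucosinolates are sulfur-rich defence compounds that Brassicaceae make from methionine, and several of the genes behind them are classic loci of natural variation in *Arabidopsis*. The 9 loci chosen here are *AOP1*, *AOP2* and *AOP3*, which lie in tandem on chromosome 4, *MAM1* and *MAM3*, *BCAT4*, *UGT74C1*, *ESP* and *ESM1*. They were chosen, with earlier results of these data known, as loci that vary between accessions or make or break down aliphatic glucosinolates, and a probe set was taken for a locus where the array annotation gives that locus alone. This gave 1 probe set each for 4 of the 9, namely *AOP1* (AT4G03070), *AOP3* (AT4G03050), *BCAT4* (AT3G19710) and *UGT74C1* (AT2G31790), out of 22746 probe sets tested. The annotation used here names no probe set for *AOP2*, *MAM1*, *MAM3*, *ESP* and *ESM1*, so these 5 were not analysed here.

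In the pathway, BCAT4 removes the amino group of methionine and so starts the elongation of the side chain, which the MAM enzymes carry on. The core structure is then built from the elongated amino acid, and a glucosyltransferase such as UGT74C1 or UGT74B1 adds the glucose. The AOP genes encode 2-oxoglutarate-dependent dioxygenases that act late, on the finished side chain: AOP2 makes alkenyl and AOP3 hydroxyalkyl glucosinolates. After tissue damage, myrosinases release the glucose, and proteins such as ESP and ESM1 steer which breakdown product forms. Cvi is known as an accession with alkenyl and L*er* as one with hydroxyalkyl glucosinolates in leaves.

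Root tips of 3 genotypes were compared on Affymetrix ATH1 arrays, with 3 biological replicates each: the natural accessions Cape Verde Islands (Cvi-1 in the labels) and Landsberg *erecta* (L*er*-2) with 170G-55-16, a near isogenic line (NIL) also called HGI2.1. All seedlings were 5 d old and untreated, and had grown on hard agar for 2 d upright and for 3 d tilted back by 30°, so that no group differs from another in treatment. For each array about 600 root tips of 7 mm were pooled, which averages over seedlings and over all cell types of the tip. The NIL is a single line, and the labels give neither its parents nor the segment that was introgressed. The deposited value is 1 linear hybridization signal per probe set and array, and each difference below is in log2 of that signal, fitted with limma to all 9 arrays. A gene was called where its p, adjusted by Benjamini and Hochberg's method over all probe sets, was under 0.05, at any fold. "Cvi minus L*er*" is positive where Cvi is higher.

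Median signals ran from 109.9 to 122 over the 9 arrays. Cvi array 1 stood apart, with correlations of 0.978 and 0.980 with the other Cvi arrays, against 0.996 to 0.998 within L*er* and within the NIL. Of the root markers looked up, 2 of 7 root hair genes are named, *EXPA7* (862 to 1348) and *EXPA18* (1188 to 1556), and 1 of 7 ground tissue genes, *CO2* (44.7 to 66.6), while none is named for the stele, the meristem and cap or dividing cells. Of 19 genes of shoot photosynthesis, 2 are named. Their summed signal was 665 to 752 in Cvi, 946 to 974 in L*er* and 858 to 977 in the NIL, so it was lowest in Cvi, and it was not near 0 on any array. Of these, *RCA* was lower in Cvi than in L*er* (difference −0.47, limma adjusted p = 0.0467), whereas *LHCB4.1* at −0.47 did not pass (limma adjusted p = 0.127). The log2 ratio of 3′ to 5′ signal of the actin control was 1.22 to 2.12 in Cvi and 2.48 to 2.98 in the others, that of ubiquitin 1.71 to 2.07 and 0.96 to 1.32, and that of GAPDH −1.22 to −0.96 and −1.07 to −0.89. The photosynthesis, actin and ubiquitin values separate Cvi from the other genotypes, while for GAPDH Cvi arrays 2 and 3 lie within the range of the others. The part of these values in the differences of Cvi below was not tested. Nor can fewer cells of a type and less RNA per cell be told apart in pooled tips.

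All 4 measured loci gave a lower signal in Cvi than in L*er*. *AOP1* differed the most among them, by 2.85-fold, and *AOP3*, *BCAT4* and *UGT74C1* by 1.47-fold to 1.55-fold. In the NIL, *AOP1*, *AOP3* and *BCAT4* had signals near or above those of L*er*, whereas *UGT74C1* was lower than in L*er*. On the whole array 13.0% of probe sets passed in the comparison of Cvi with L*er*, 7.27% with the lower and 5.75% with the higher signal in Cvi. The arrays of Cvi and L*er* did not overlap for any of the 4 loci, nor for 27.2% of all probe sets, of which those lower in Cvi make 14.3%. The NIL differed from L*er* in 0.356% of probe sets (0.255% lower, 0.101% higher) and from Cvi in 10.8% (5.61% lower, 5.23% higher in the NIL). Between the NIL and Cvi, 3 of the 4 loci were called, each as higher in the NIL, and the arrays did not overlap for any of the 4, against 26.5% of probe sets (14.9% lower in the NIL). Between the NIL and L*er* the arrays of *AOP1* and *UGT74C1* did not overlap, both lower in the NIL, against 13.6% of probe sets (9.37% lower). A pass with a fold of at least 2 was found for 3.88%, 0.189% and 3.39% of probe sets in these comparisons, and among the loci for *AOP1* alone, in those with Cvi. The median difference of the 4 loci between Cvi and L*er* was −0.61, and that of all probe sets 0.01. For a single gene, an exact two-sided permutation test of 3 arrays against 3 allows no p below 0.1, which each of the 4 reached in this comparison.

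**Figure D1:**
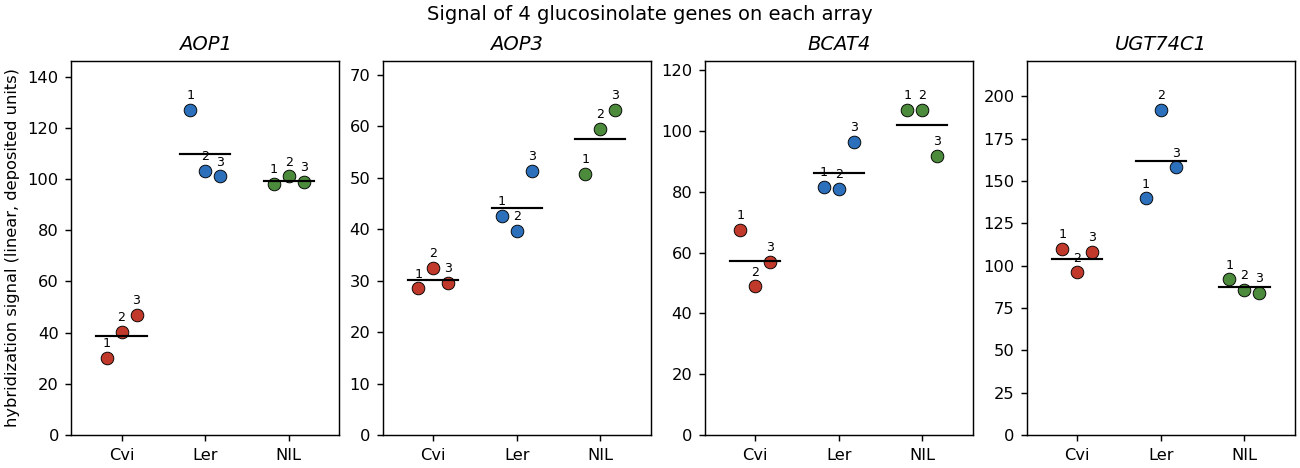
Linear hybridization signal (y axis, deposited units, from 0) of *AOP1*, *AOP3*, *BCAT4* and *UGT74C1* on each of 9 arrays (points, numbered by replicate) of Cvi, L*er* and the NIL; lines are geometric means of 3 arrays. In each panel the Cvi arrays lie below the L*er* arrays, and the NIL arrays lie below the Cvi arrays for *UGT74C1* alone.

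Of the side chain genes, *AOP1* encodes a dioxygenase of the AOP cluster. Its signal was 30.1, 40.4 and 47.0 on Cvi arrays 1, 2 and 3, 127, 103 and 101 on the L*er* arrays and 98.1, 101 and 98.8 on the NIL arrays. Every Cvi array lay well below every other array, and the NIL arrays lay just under the lowest L*er* array. The log2 signal was 5.27 ± 0.33 in Cvi, 6.78 ± 0.18 in L*er* and 6.63 ± 0.02 in the NIL (SD, n = 3 arrays each). The difference was −1.51 between Cvi and L*er* (standard error 0.16, 95% confidence interval −1.87 to −1.16, limma adjusted p = 1.12e-04). Between the NIL and Cvi it was 1.37 (standard error 0.16, limma adjusted p = 2.83e-04), and between the NIL and L*er* it was −0.15 with an interval of −0.50 to 0.21, which did not pass (limma adjusted p = 1.00). Without Cvi replicate 1, whose signal was the lowest, *AOP1* was still lower in Cvi than in L*er*, by −1.33 (limma adjusted p = 4.02e-06).

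*AOP3*, the gene of hydroxyalkyl glucosinolates, gave the weaker contrast of this pair. Its signal was 28.5, 32.5 and 29.6 in Cvi, 42.6, 39.6 and 51.3 in L*er* and 50.8, 59.5 and 63.2 in the NIL. The Cvi arrays were the lowest and did not overlap with the others, while the lowest NIL array lay among the L*er* arrays. The log2 signal was 4.91 ± 0.10 in Cvi, 5.47 ± 0.19 in L*er* and 5.85 ± 0.16 in the NIL (SD, n = 3 arrays each). *AOP3* was lower in Cvi than in L*er* by −0.55 (standard error 0.13, 95% confidence interval −0.84 to −0.27, limma adjusted p = 0.0164) and higher in the NIL than in Cvi by 0.93 (standard error 0.13, limma adjusted p = 8.63e-04). The NIL minus L*er* difference of 0.38 did not pass (interval 0.10 to 0.66, limma adjusted p = 0.797, exact two-sided permutation p = 0.20). The call between Cvi and L*er* was lost without L*er* replicate 1 (−0.58, limma adjusted p = 0.0509) and without L*er* replicate 3 (−0.45, limma adjusted p = 0.0744), while that between the NIL and Cvi passed whichever array was left out. All Cvi signals of *AOP3*, its signal of 39.6 on L*er* array 2, and the signals of *AOP1* on Cvi arrays 1 and 2 lie below 41.4. The *AOP3* signal of 42.6 on L*er* array 1 lies just above it. This value is the upper limit of the third of the array with the weakest mean signals, so that background weighs on the size of these differences.

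*BCAT4*, at the entry to chain elongation, showed the same order of genotypes as *AOP3*. Its signal was 67.4, 48.9 and 57.0 in Cvi, 81.5, 81.0 and 96.5 in L*er* and 107, 107 and 91.9 in the NIL. The Cvi arrays were again the lowest, and the L*er* and NIL arrays overlapped. The log2 signal was 5.84 ± 0.23 in Cvi, 6.43 ± 0.14 in L*er* and 6.67 ± 0.13 in the NIL (SD, n = 3 arrays each). Cvi minus L*er* was −0.59 (standard error 0.14, 95% confidence interval −0.89 to −0.28, limma adjusted p = 0.0168). NIL minus Cvi was 0.83 (standard error 0.14, limma adjusted p = 0.00284), and NIL minus L*er* was 0.24 and did not pass (interval −0.06 to 0.54, limma adjusted p = 1.00). The Cvi minus L*er* call was lost without L*er* replicate 3 (−0.50, limma adjusted p = 0.0819) and in a fit to the 6 arrays compared (limma adjusted p = 0.0546), and was kept without Cvi replicate 1 at −0.70 (limma adjusted p = 8.64e-04). Other aminotransferase genes of this family were looked up after the data had been seen: of 7 members 3 are named, and *BCAT5* with a Cvi minus L*er* difference of 0.09 and *BCAT6* with −0.21 did not pass (limma adjusted p = 0.655 and 0.402).

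*UGT74C1*, a glucosyltransferase gene of core synthesis on chromosome 2, departed from the other 3 in the NIL. Its signal was 110.1, 96.0 and 108 in Cvi, 139.7, 192 and 158 in L*er* and 91.9, 85.7 and 83.8 in the NIL. The L*er* arrays were the highest, and the NIL arrays lay below those of both accessions, with no overlap. The log2 signal was 6.71 ± 0.11 in Cvi, 7.34 ± 0.23 in L*er* and 6.44 ± 0.07 in the NIL (SD, n = 3 arrays each). It was lower than in L*er* by −0.63 in Cvi (95% confidence interval −0.91 to −0.35, limma adjusted p = 0.00753) and by −0.89 in the NIL (interval −1.17 to −0.61, limma adjusted p = 0.0140), with a standard error of 0.13 each. The NIL minus Cvi difference of −0.26 did not pass (interval −0.54 to 0.02, limma adjusted p = 0.244).

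The call of *UGT74C1* between the NIL and L*er* was not stable when single arrays were left out. It was lost without any 1 of NIL replicates 1, 2 and 3 (−0.93, −0.88 and −0.87, limma adjusted p = 0.0797, 0.0990 and 0.114) or of L*er* replicates 2 and 3 (−0.77 and −0.91, limma adjusted p = 0.0605 and 0.0795), although the difference kept its sign. Without Cvi replicate 1, it was −0.89 with limma adjusted p = 0.00151. Between Cvi and L*er*, *UGT74C1* passed whichever array was left out. Against the background of 0.356%, 1 of the 4 loci was called between the NIL and L*er*.

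**Figure D2:**
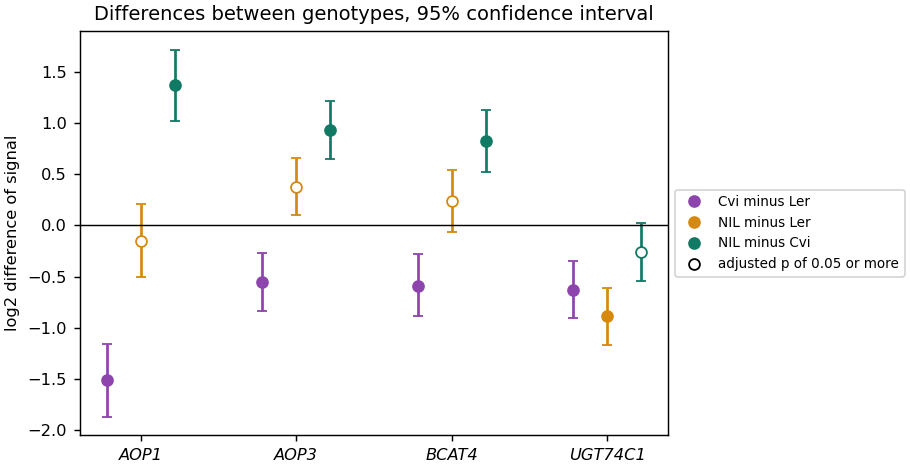
Difference in log2 signal (y axis) of the 4 loci for Cvi minus L*er*, NIL minus L*er* and NIL minus Cvi (3 arrays per genotype); points are limma estimates, bars their 95% confidence intervals, and open points have an adjusted p of 0.05 or more. All 4 Cvi minus L*er* estimates lie below 0, and *UGT74C1* alone is called between the NIL and L*er*.

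Set on a scale where L*er* is 0 and Cvi is 1, the NIL lay at 0.10 for *AOP1*, −0.69 for *AOP3*, −0.41 for *BCAT4* and 1.42 for *UGT74C1*. Both differences behind this position use the L*er* arrays, and no interval was computed for it. The NIL minus L*er* difference did not pass for *AOP1*, *AOP3* and *BCAT4*, nor did NIL minus Cvi for *UGT74C1*. So these positions do not set the NIL apart from that accession. Over the 9 arrays, the signals of *AOP1*, *AOP3* and *BCAT4* rose and fell together, with Pearson's r of 0.81 for *AOP1* and *AOP3*, 0.78 for *AOP1* and *BCAT4* and 0.86 for *AOP3* and *BCAT4*. *UGT74C1* had r of 0.26, −0.22 and −0.01 with *AOP1*, *AOP3* and *BCAT4*. These arrays form 3 genotype groups, so r mainly describes the order of the genotypes.

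By the same measure, the named genes most like each locus over the 9 arrays were found. For *AOP1* they were AT1G47480 (r = 0.995), AT4G13440 (0.993) and AT5G43520 (0.991). AT5G43520 had signals of 19.3 to 31.0 in Cvi and 89.4 to 147 in the other genotypes. For *AOP3* they were AT2G01410 (0.966), AT3G23570 (0.964) and AT2G32560 (0.949), and for *BCAT4* the subtilase gene *SBT3.5* (0.938), AT5G37130 (0.937) and AT5G13200 (0.936). For *UGT74C1* they were AT2G20210 (0.974), AT3G09320 (0.960) and the jacalin lectin gene *JAL22* (0.939). A high r does not need a large difference: AT2G01410 and AT3G09320 passed in none of the comparisons. Their Cvi minus L*er* differences were −0.16 and −0.08 (limma adjusted p = 0.381 and 0.615). AT2G20210 and *JAL22* lie on chromosome 2, as *UGT74C1* does, and *JAL22* was lowest in the NIL (232 to 258), whereas the NIL signals of AT2G20210 (37.8 to 45.9) overlapped with those of Cvi. None of the alike genes of the other loci lies on the chromosome of its own locus, apart from AT4G13440. These genes are the highest r of all named probe sets over only 9 arrays, so a high r follows from the search. The share of named probe sets on each chromosome was not counted, and a link to position was not tested.

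The lists of glucosinolate genes hold 85 genes beside the 9 loci, and 10 of these are named on the array. Of these 10, 1 was lower and 2 were higher in Cvi than in L*er*, 0 differed between the NIL and L*er*, and 2 were lower and 1 higher in the NIL than in Cvi, where the array as a whole has 13.0%, 0.356% and 10.8% called. With so few called over the array between the NIL and L*er*, 0 of 10 says little about these genes. Their median Cvi minus L*er* difference was −0.10, against 0.01 for all probe sets. The other 7 did not pass between Cvi and L*er*, and these genes were not tested against the 4 loci.

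Of core synthesis, 3 of 11 listed genes are named, and each was called between Cvi and L*er*, against 13.0% of the array. They include *UGT74C1*, already counted among the 4 loci. *UGT74B1*, the other glucosyltransferase of the pathway, had signals of 675, 508 and 531 in Cvi, 872, 798 and 881 in L*er* and 809, 897 and 815 in the NIL. The NIL was at the level of L*er*, and Cvi lay below both without overlap. The difference was −0.58 between Cvi and L*er* (standard error 0.12, limma adjusted p = 0.00989), −0.02 between the NIL and L*er* (limma adjusted p = 1.00) and 0.57 between the NIL and Cvi (limma adjusted p = 0.0135), a call lost without NIL replicate 2 (0.52, limma adjusted p = 0.0684). So both named glucosyltransferases were called lower in Cvi, as were 7.27% of all probe sets. In the NIL *UGT74C1* was called lower than in L*er* and *UGT74B1* was not, and the difference between these genes was not tested. In the wider UGT74 family, looked up after the data had been seen, 4 of 7 genes are named, and *UGT74D1* at −0.08 and *UGT74F1* at 0.12 did not pass between Cvi and L*er* (limma adjusted p = 0.723 and 0.520).

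*GSTU20*, a glutathione transferase gene linked to aliphatic synthesis, went the other way. It had signals of 239, 316 and 341 in Cvi, 187, 166 and 185 in L*er* and 213, 215 and 213 in the NIL. Cvi was higher than L*er* by 0.72 (standard error 0.13, limma adjusted p = 0.00467), and this passed whichever array was left out. The NIL was lower than Cvi by −0.47 (limma adjusted p = 0.0496), but this call was kept in 2 of 15 other fits, without Cvi replicate 1 (−0.62) and without the third of the array with the weakest signals, and was lost when any other array was left out (−0.36 to −0.47, limma adjusted p = 0.0689 to 0.142). The NIL minus L*er* difference was 0.26 (limma adjusted p = 1.00).

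Of side chain modification, 3 of 11 listed genes are named, and beside *AOP1* and *AOP3* this is *GSL-OH* (AT2G25450), whose dioxygenase hydroxylates an alkenyl glucosinolate, the product class of AOP2. Its signal was 52.5, 41.9 and 38.3 in Cvi, 20.7, 24.5 and 19.7 in L*er* and 33.4, 28.9 and 34.3 in the NIL. Cvi was the highest, L*er* the lowest and the NIL between them, with no overlap. Cvi exceeded L*er* by 1.03, or 2.04-fold (standard error 0.14, limma adjusted p = 7.36e-04), so *GSL-OH* went opposite to *AOP1* and *AOP3*. The NIL minus L*er* difference of 0.58 did not pass (limma adjusted p = 0.253), but did without Cvi replicate 1 (0.58, limma adjusted p = 0.0181). That array does not enter the difference, and without it 266 probe sets of the whole array passed in this comparison, against 81. Most *GSL-OH* signals lie below 41.4, so that the gene drops out with the third of the array that has the weakest signals. With 16 added to each signal the Cvi minus L*er* difference was 0.67, under 2-fold, and still passed (limma adjusted p = 0.00285). *GSL-OH* lies on chromosome 2, as do *UGT74C1* and the genes *UGT74D1* and *UGT74F1*, which passed in no comparison. A link of these differences to position was not tested.

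The transcription factor genes *MYC3* and *MYC4*, which act with MYB factors on glucosinolate genes, had Cvi minus L*er* differences of −0.13 and −0.07, the transporter genes *GTR1* and *GTR2* of −0.33 and −0.35 and *APS3*, an ATP sulfurylase gene of sulfate activation, of −0.06. None of these passed in any of the 3 comparisons. Without Cvi replicate 1, *GTR1* at −0.58 and *GTR2* at −0.69 were lower in Cvi (limma adjusted p = 0.00514 and 0.00246). In that fit 5396 probe sets of the whole array passed between Cvi and L*er*, against 2960 in the fit to all 9 arrays. *SDI2*, a sulfur deficiency gene, did not pass between Cvi and L*er* (0.42, limma adjusted p = 0.0726) and was lower in the NIL than in Cvi by −0.52 (limma adjusted p = 0.0349). The latter call was lost in 9 of 15 other fits, among them those without Cvi replicate 3 or any 1 array of L*er* or the NIL, with adjusted p up to 0.143 in limma. Of breakdown, *PYK10*, a β-glucosidase gene typical of roots, had signals of 8790 to 13048 on the 9 arrays and a Cvi minus L*er* difference of −0.16 (limma adjusted p = 0.507). *BGLU21* and *BGLU22* share a probe set and were not named. No gene is named for indole glucosinolate synthesis, for the specifier proteins or for nitrilases, out of 13, 12 and 4 listed.

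**Figure D3:**
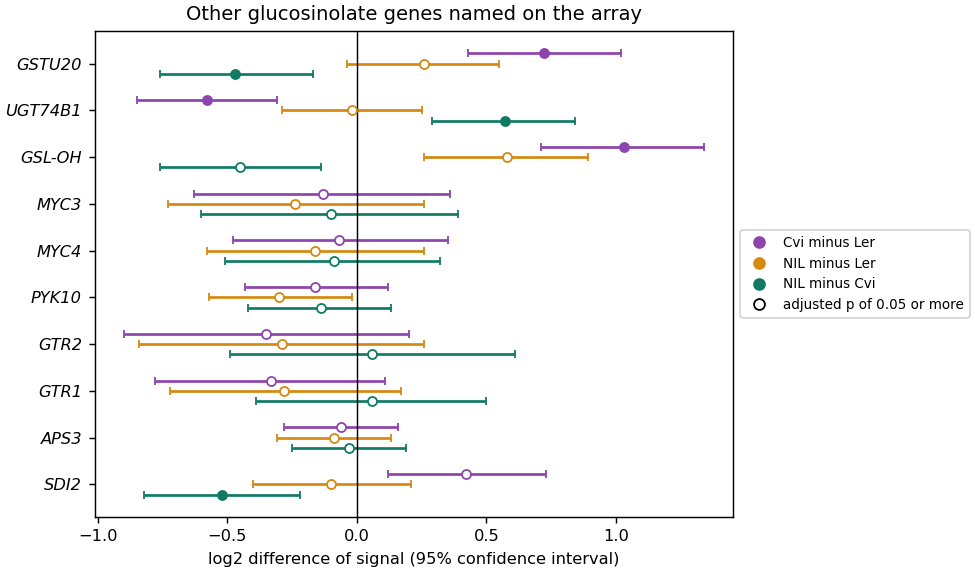
Difference in log2 signal (x axis) of the 10 other named glucosinolate genes for Cvi minus L*er*, NIL minus L*er* and NIL minus Cvi; points are limma estimates from 3 arrays per genotype, bars are 95% confidence intervals, and open points have an adjusted p of 0.05 or more. *UGT74B1* is lower and *GSTU20* and *GSL-OH* are higher in Cvi, and no gene is called between the NIL and L*er*.

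To see whether the loci differed alone or along with their chromosome neighbours, the 5 nearest named genes on each side were taken in gene order. No neighbour of any locus both passed and differed by 1 or more on the log2 scale, so those named here were picked after their values had been seen. Around *AOP1* and *AOP3*, 1 of 10 neighbour probe sets was called between Cvi and L*er*, near the 13.0% of the whole array. This was AT4G03020 at 0.44 (limma adjusted p = 0.0283), which is the direction opposite to the AOP genes, and the median of the 10 was 0.03. AT4G03140 was lower on every Cvi array than on any L*er* array, but its difference of −0.35 did not pass (interval −0.63 to −0.06, limma adjusted p = 0.112). AT4G03090, the next named gene on one side, had a difference of 0.04, and AT4G03040, on the other side, gave signals of 7.83 to 10.8 on all arrays, too near the lowest signals of the arrays to show a lower value. Between the NIL and L*er*, 0 of 10 passed, with a median of −0.07. The AOP genes were not tested against their neighbours.

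Around *BCAT4*, 1 of 11 probe sets was called, again near the 13.0% of the array, AT3G19810 at 0.45 (limma adjusted p = 0.0300), higher in Cvi. The median was 0.06, and the nearest named genes *IKU2* and AT3G19740 (2 probe sets) had −0.02, 0.29 and 0.36, none of which passed. Around *UGT74C1*, 2 of 10 were called, against the same 13.0% of the whole array. Both were lower in Cvi, as were 7.27% of the array. They were AT2G31800 at −0.62 (limma adjusted p = 0.0204) and *MRL7-L* at −0.40 (limma adjusted p = 0.0398). In the NIL these genes had differences from L*er* of −0.49 and −0.57, which did not pass (limma adjusted p = 0.592 and 0.0908), although *MRL7-L* did without Cvi replicate 1 (−0.57, limma adjusted p = 0.00498) and in a fit to the 6 arrays compared (limma adjusted p = 0.0120). Both fits leave the difference as it is and call more of the whole array, 266 and 223 probe sets against 81. The neighbours' Cvi minus L*er* calls were each lost in some fits without 1 array, with limma adjusted p up to 0.111 for AT4G03020, 0.125 for AT3G19810, 0.0845 for AT2G31800 and 0.144 for *MRL7-L*. AT2G31800 had signals of 148, 106 and 112 in Cvi, 181, 214 and 163 in L*er* and 141, 134 and 121 in the NIL. Every L*er* array lay above every Cvi and NIL array for both genes and for *UGT74C1*, while *UGT74D1*, the next named gene on the other side, had −0.08 in Cvi and −0.22 in the NIL. AT2G31810 and AT2G31820, between AT2G31800 and *MRL7-L*, had −0.11 and 0.08 in Cvi and did not pass (limma adjusted p = 0.601 and 0.842). AT2G31710, beyond *UGT74D1*, was lower on every Cvi array than on any L*er* array, but −0.55 did not pass (limma adjusted p = 0.194).

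**Figure D4:**
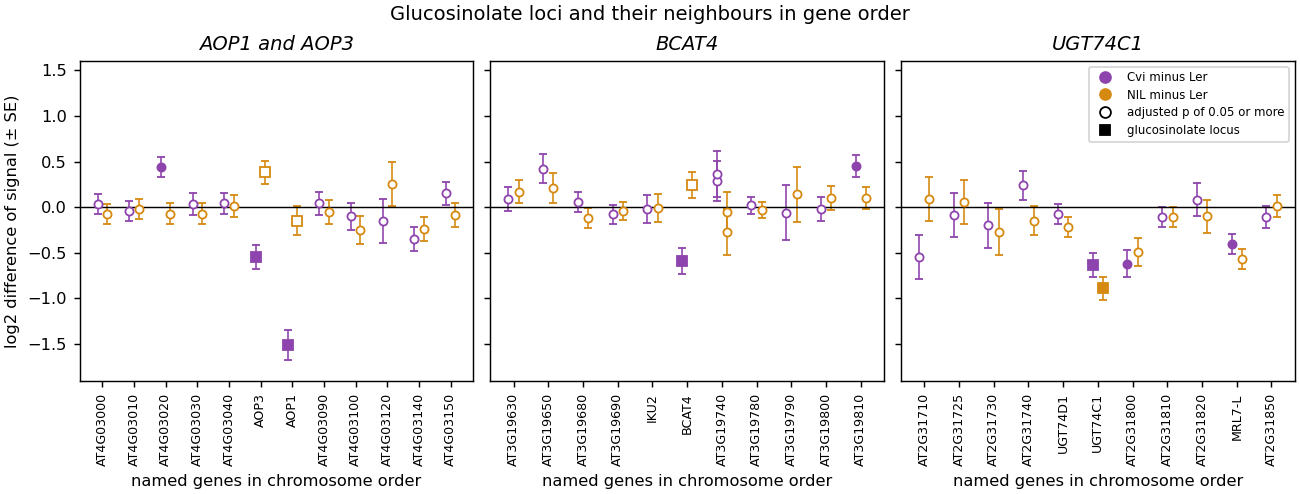
Difference in log2 signal (y axis, ± standard error, 3 arrays per genotype) for Cvi minus L*er* and NIL minus L*er* at *AOP1* and *AOP3*, *BCAT4* and *UGT74C1* (squares) and at 5 named genes on each side in chromosome order (circles); open symbols have an adjusted p of 0.05 or more. The Cvi minus L*er* estimates of the AOP genes and *BCAT4* lie below those of their neighbours, but the bars of *AOP3* and AT4G03140 overlap. Loci were not tested against neighbours. Near *UGT74C1*, AT2G31800 and *MRL7-L* are called lower in Cvi, while the named genes between them are not.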

How the data were processed

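The deposited table holds 1 linear hybridization intensity per probe set and array, already normalized by the authors. MAS5 and RMA are named in the submitters' processing notes, but not which of them made these values. No detection calls were used, so signal over background is unknown, and the number of arrays limits the precision. Whether the genotypes differ in sequence under a probe was not examined. Of 22810 probe sets, 64 controls were left out. The platform annotation gives 1 gene for 13513 of the other 22746, several for 503 and none for 8730. Loci and gene order came from the TAIR10.1 gene table.

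A model with genotype as its single factor was fitted to the log2 values of all arrays in limma (version 3.58.1, R 4.3.3). The fit was tested on simulated data. The members and lists were chosen with earlier results of these data known. Named are the 4 loci on every array, up to 4 called genes per list, called neighbours that differ by at least 1 on the log2 scale and, per locus, the 3 genes of highest r; other genes were added to account for small counts. A planned description of promoter sequences was not run. Each replicate had its own seedlings, but no source says that replicates were grown apart, so p-values measure the spread between these samples.

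Fits were repeated after quantile normalization, without the third of the array with the weakest signals, on the 6 arrays compared, with a replicate block, with a trended and robust prior, with 16 added before the log, without each array in turn and with a minimum fold of 2.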

Additional observations from a re-analysis of the deposited data

How the results depend on the processing

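No difference of the 4 loci changed sign under any of the 17 alternatives, but many of these could not change it. The difference stays as it is without the weakest signals, in a fit to the compared arrays alone and with a replicate block. It also stays with a trended and robust prior, with a minimum fold and without an array of the genotype not compared. Only quantile normalization, a constant added before the log and leaving out an array of a compared genotype could change the sign. Of the 4 loci, 4 were called between Cvi and L*er*, 1 between the NIL and L*er* and 3 between the NIL and Cvi. With a fold of at least 2, either with an adjusted p under 0.05 or with a 95% confidence interval that leaves out 0, these counts were 1, 0 and 1, since *AOP1* alone differs by 2-fold. Leaving out 1 array at a time gave 2 to 4 between Cvi and L*er* (2 without L*er* replicate 3), 0 to 1 between the NIL and L*er* and 3 between the NIL and Cvi.

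Of the 10 other glucosinolate genes, 3, 0 and 3 were called in these comparisons. The counts were 1 and 0 for Cvi minus L*er* and NIL minus Cvi with either rule on fold. In a fit to the 6 arrays compared, 1 gene (*GSL-OH*) was called between the NIL and L*er* and 0 between the NIL and Cvi. Leaving out 1 array gave 3 to 5, 0 to 1 and 0 to 3.

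Deviations from the genotype means correlated at −0.26 to 0.23 for samples of the same replicate number and at −0.26 to 0.28 for other numbers. These ranges overlap and show no pairing by number, but they rest on few pairs of arrays. Whether samples of the same number shared a batch was not tested. With a replicate block, 0 of the 4 loci were called between the NIL and L*er* (*UGT74C1* −0.89, limma adjusted p = 0.0599), and 1 of the 10 other genes, *UGT74B1*, between the NIL and Cvi. The number of probe sets called with the block was 2520 between Cvi and L*er*, 67 between the NIL and L*er* and 2094 between the NIL and Cvi, against 2960, 81 and 2465 without it.

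Over all probe sets, these 3 counts were 1944, 223 and 1529 in a fit to the 6 arrays compared, and 883, 43 and 772 with an adjusted p and a fold of at least 2. With the confidence interval and a fold of at least 2 they were 895, 54 and 784. Without 1 array they ranged from 1832 to 5396, from 30 to 266 and from 1560 to 4028, the highest being without Cvi replicate 1 (5396, 266 and 4028).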
